A study of Mus musculus with 22 samples.

Results

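Dendritic cells (DCs) of the C57BL/6 mouse pancreas were compared after culture with lipopolysaccharide (LPS) and after culture with phosphate-buffered saline (PBS) as the control. The comparison holds 7 of the 22 arrays of the series. All 3 arrays labelled as C57BL/6 with LPS (replicates 2, 3 and 4) and all 4 labelled as C57BL/6 with PBS (replicates 1, 2, 3 and 4) were used, and every difference below is LPS minus PBS. Both groups were C57BL/6 females, 5 weeks old. The cells came from pools of 10 pancreases, from which CD45-positive cells were enriched with beads and CD11c+CD8α- cells were sorted by flow cytometry, then kept in culture for 18 h. The labels do not say whether LPS and PBS arrays of equal number share a pool, but such arrays deviated together from their group means, so values with the number as a block (pairing) are given where they change a call or count. The other arrays hold DCs lysed directly after the sort, called steady state (4 C57BL/6 and 3 NOD arrays), and cultured DCs of NOD mice, a strain that develops autoimmune diabetes (4 arrays with LPS and 4 with PBS). The labels give LPS and PBS as the only difference between the groups compared here. The sources differ on how culture and steady state relate: the series description calls the culture another experiment, whereas the study's methods divide the sorted cells between direct lysis and culture. Steady state values are therefore given as levels without a test, and an effect of culture and one of a separate experiment cannot be told apart.

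LPS is a component of the outer membrane of Gram-negative bacteria. CD14 and the complex of TLR4 with MD-2 (gene Ly96) bind it on the surface of myeloid cells, and adaptors such as MyD88 and TRIF pass the signal to NF-kB, MAP kinases and interferon regulatory factors. DCs are known to answer with cytokines and chemokines, with interferon and the genes it induces, and with higher costimulatory molecules. Among the induced genes are feedback inhibitors of the same pathway.

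RNA was measured on Affymetrix whole-genome mouse arrays and is given as log2 expression, so that a difference of 1 is a 2-fold change. The 7 arrays had medians from 7.63 to 7.68, lower quartiles from 6.19 to 6.34 and highest values from 14.8 to 14.995. Pearson's r over all probe sets was 0.9846 to 0.9889 within LPS, 0.9837 to 0.9916 within PBS and 0.9767 to 0.9907 between the groups, so no array stood apart. The DC gene Itgax (CD11c, used for the sort) had 8.36 to 9.10 in these arrays against 11.27 to 11.39 at steady state, and Flt3, the receptor of a DC growth factor, had 9.63 to 10.14 against 9.28 to 9.62. Zbtb46, a transcription factor of conventional DCs, lay at 9.86 to 10.37, and the macrophage-shared genes Sirpa (13.14 to 13.51) and Itgam (9.79 to 10.57) were also measured. The mean over 15 CD8α- DC markers was 9.96 to 10.16 in these arrays against 11.75 to 11.84 at steady state. That over 22 macrophage markers was 11.22 to 11.89 against 12.74 to 12.88. B cell markers were present too, with Cd79a at 10.06 to 11.76, and the mean over 11 acinar cell markers ranged from 8.32 to 11.36 between PBS arrays and from 8.61 to 10.88 between LPS arrays. In such bulk samples, fewer cells of a type and less RNA per cell cannot be told apart.

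The largest changes with LPS were rises, whereas the balance of rises and falls in number depended on the fit. Each of 18193 genes was represented by the brightest of the probe sets naming no other gene. By limma, a moderated test on log2 values, 326 of them (1.79%) passed a Benjamini-Hochberg adjusted p of 0.1 and are called here. Of these, 175 (0.962%) rose and 151 (0.83%) fell. At least 2-fold rises were found for 64 genes and 2-fold falls for 36, whereas 7 genes rose and 0 fell at least 4-fold. The median difference over all genes was 0.026, and at an unadjusted p under 0.05 953 genes were higher (5.24%) and 1000 lower (5.5%). In all 326 genes the LPS and PBS arrays did not overlap. Without regard to the threshold, 2137 of the 18193 genes (11.7%) had groups that did not overlap. Counts depended on single arrays. On the probe set level, 665 of 45037 (1.48%) were called, 322 higher (0.715%) and 343 lower (0.762%), of which 201 (0.446%) differed at least 2-fold. With the replicate block 369 were higher and 584 lower, and 268 of the 326 genes stayed called. One fit of all 22 arrays gave 845 higher and 1185 lower, while without LPS replicate 2 the split was 93 to 29. The count was 84 without PBS replicate 1, 122 without PBS replicate 4 or without LPS replicate 2, 128 without LPS replicate 3 and 226 without LPS replicate 4. With any array left out, 42 genes stayed called (33 higher and 9 lower), and all 326 kept their sign and an unadjusted p under 0.05.

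The 15 largest rises were led by U90926, Csf3, Gja1, Lcn2, Hamp, Steap4 and Rrm2, the 7 genes past 4-fold. In the order of replicates used throughout (LPS 2, 3 and 4, then PBS 1, 2, 3 and 4), U90926, a gene whose function is not described here, had 13.14, 13.12 and 13.14 with LPS and 9.11, 10.11, 8.65 and 8.93 with PBS. The LPS arrays lay within 0.02 of each other and 3.01 or more above the highest PBS array, replicate 2, and the difference was 3.93 ± 0.29 (SE, adjusted p = 0.00506), a 15.3-fold rise. Gja1, a connexin that forms gap junctions, read 11.32, 10.89 and 10.94 with LPS and 7.48, 8.80, 7.06 and 8.73 with PBS. PBS replicates 2 and 4 were the high ones among the controls and still lay 2.09 or more below the lowest LPS array (difference 3.03 ± 0.39, adjusted p = 0.0203). Slamf1, a receptor of immune cells, and Mylk, the myosin light chain kinase, rose by 1.84 ± 0.39 (adjusted p = 0.0775) and 1.74 ± 0.29 (adjusted p = 0.0406). Slamf1 had a narrow gap, with LPS replicate 3 at 12.15 and PBS replicate 2 at 11.88. Without LPS replicate 2, the adjusted p was 0.255 for Slamf1 and 0.14 for Mylk. Urah, an enzyme of uric acid breakdown, rose by 1.61 ± 0.27 (adjusted p = 0.0428).

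Inflammatory cytokines were the list with the highest median. Of 26 measured, 11 rose and none fell, with a median difference of 0.69 against 0.026 over all genes. The shares of all genes to set beside this and later list counts were 1.79% called and 10.7% at an unadjusted p under 0.05. Il1b, the secreted pyrogenic cytokine IL-1β, had 13.17, 13.28 and 13.15 with LPS and 11.04, 11.66, 11.38 and 11.12 with PBS. The LPS arrays were alike and the nearest PBS array, replicate 2, lay 1.49 below the lowest of them. The rise was 1.90 ± 0.16 (adjusted p = 0.00633), or 3.74-fold. Its relative Il1a read 11.21, 10.76 and 10.86 with LPS and 9.24, 9.34, 8.68 and 8.89 with PBS, also without overlap, a rise of 1.90 ± 0.19 (adjusted p = 0.0104). Il36a, an IL-1 family cytokine known from epithelia, read 8.38, 8.08 and 8.11 against 6.79, 6.96, 6.35 and 6.27, from low levels in the control (difference 1.60 ± 0.19, adjusted p = 0.0177).

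Csf3 (G-CSF), which drives the growth of neutrophils, had the largest rise of any cytokine. Its values were 11.57, 10.53 and 11.57 with LPS and 8.20, 8.93, 7.63 and 7.68 with PBS. LPS replicate 3 was the low one of its group and PBS replicate 2 the high one, and 1.60 still separated them. The difference was 3.11 ± 0.35 (adjusted p = 0.0175), or 8.65-fold. Csf2 (GM-CSF), a growth factor of myeloid cells, had 10.03, 9.37 and 9.65 with LPS and 8.73, 8.77, 7.66 and 8.97 with PBS. These groups did not overlap either, but PBS replicate 3 lay far below the other controls, and the difference of 1.15 ± 0.30 did not pass the threshold (adjusted p = 0.147). With LPS and PBS arrays of equal number paired (the replicate block) Csf2 passed (adjusted p = 0.0749), as it did without PBS replicate 3 (adjusted p = 0.0991).

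Some of the cytokines that steer T cells rose. Il12a, the p35 subunit of IL-12 and IL-35, had 9.93, 9.45 and 9.37 with LPS and 7.60, 8.27, 7.35 and 7.52 with PBS. It rose by 1.90 ± 0.23 (adjusted p = 0.018), and Ebi3, its partner in IL-35, rose by 0.94 ± 0.12 (adjusted p = 0.0198). Il12b, the p40 subunit that IL-12 needs for its activity, had 8.69, 8.53 and 8.08 with LPS and 8.49, 8.40, 8.07 and 7.76 with PBS. These overlapped, and the difference was 0.25 ± 0.21 (adjusted p = 0.751). Il23a, the other partner of p40, read -0.51 ± 0.40 (adjusted p = 0.735). Il10, which restrains inflammation, read 10.89, 11.29 and 10.69 with LPS and 9.55, 9.46, 9.45 and 9.02 with PBS, without overlap, and rose by 1.59 ± 0.18 (adjusted p = 0.0176).

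Il6 and Tnf, the classical early cytokines of the LPS response, rose less. Il6 had 12.13, 11.63 and 11.87 with LPS and 10.66, 11.14, 10.42 and 10.28 with PBS, and LPS replicate 3 lay 0.50 above PBS replicate 2 (difference 1.25 ± 0.21, adjusted p = 0.0418). Tnf had 12.07, 11.64 and 11.92 with LPS and 11.15, 11.23, 11.11 and 11.09 with PBS. The controls lay within 0.14 of each other and below every LPS array, and the difference was 0.73 ± 0.13 (adjusted p = 0.0491). Lif, a cytokine of the IL-6 family, and Inhba, the subunit of activin A, rose by 0.73 ± 0.16 (adjusted p = 0.0788) and 1.24 ± 0.28 (adjusted p = 0.0934). Il1a, Il1b, Il12a, Ebi3, Il10, Il36a and Csf3 stayed called with any array left out. The other 4 lost the call in at least 1 such fit, where the highest adjusted p was 0.288, for Inhba without LPS replicate 2.

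**Figure D1:**
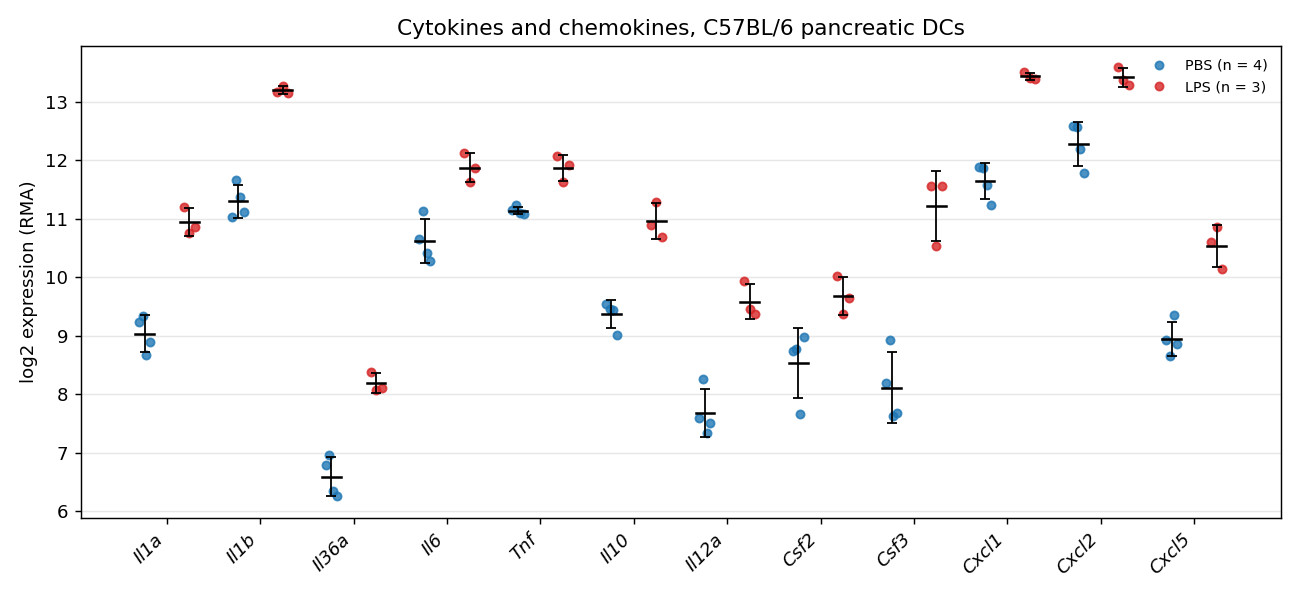
Log2 expression of 12 cytokines and chemokines in each C57BL/6 array, PBS in blue (4 arrays) and LPS in red (3 arrays), with the group mean (line) and SD (bar). No gene has overlapping groups, the widest gap is that of Csf3, and Csf2 alone among the 12 missed the threshold, with an adjusted p of 0.147.

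Of 23 chemokines measured, 5 rose and none fell, and the median difference was 0.05. The rises were in the neutrophil-attracting chemokines Cxcl1, Cxcl2 and Cxcl5 and in Ccl3 and Ccl4. Cxcl1 had 13.51, 13.41 and 13.40 with LPS and 11.90, 11.88, 11.59 and 11.24 with PBS, and rose by 1.79 ± 0.17 (adjusted p = 0.0104). Cxcl5 had 10.60, 10.87 and 10.15 with LPS and 8.93, 8.66, 9.35 and 8.86 with PBS, and rose by 1.59 ± 0.21 (adjusted p = 0.0203). In both genes every LPS array lay above every PBS array. Cxcl2 rose by 1.14 ± 0.20 (adjusted p = 0.0457), Ccl4 by 0.66 ± 0.13 (adjusted p = 0.0664) and Ccl3 by 0.65 ± 0.12 (adjusted p = 0.0515). Cxcl1 and Cxcl5 stayed called with any array left out, and for the other 3 the highest adjusted p was 0.214, for Ccl4 without LPS replicate 3. Ccl17 and Ccl22, which attract T cells through CCR4, had differences of 0.96 ± 0.29 (adjusted p = 0.219) and 0.75 ± 0.21 (adjusted p = 0.197), and passed with the replicate block (adjusted p = 0.0604 and 0.0704). The interferon-inducible Cxcl10 read 14.29, 14.34 and 14.28 with LPS and 14.27, 14.29, 14.34 and 14.30 with PBS, and Ccl5 14.60, 14.59 and 14.57 with LPS and 14.52, 14.54, 14.51 and 14.53 with PBS. Both lay near the top of the array's range in either group, and their differences were 0.00 ± 0.11 and 0.06 ± 0.11 (adjusted p = 0.998 and 0.901).

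The promoter windows of the called genes were read from RefSeq (build GRCm38.p6), each with 250 bases before and 50 after an annotated start. Windows were at hand for 139 of the 175 genes that rose, 119 of the 151 that fell and 14452 of the 18193 tested, and Csf3, Il10, Il36a, Cxcl5 and Nfkbiz are among those without one. A match to the NF-kB consensus on either strand was held by 27 of 166 windows of genes that rose (16.3%), by 14 of 156 windows of genes that fell (8.97%), by 9.98% of the windows of all tested genes and by 8.46% of all 32851 windows. These shares describe letters and were not tested. Overlapping matches were counted apart, which gives matches 1 base apart where a run reads on both strands. Windows of 3 genes that rose, of the NF-kB inhibitor gene Tnip1, which rose too, and of Cxcl10, which was not called, are shown to let the matches be compared, with the matches in capitals. Cxcl1 (chr5:90890995-90891294, plus strand) holds its matches 71 and 70 bases before the start, Cxcl2 (chr5:90903649-90903948, plus strand) 97 and 96 bases before it, and Il6 (chr5:30012864-30013163, plus strand) 44 bases before it. Tnip1 (chr11:54962891-54963190, minus strand) holds matches 58, 57 and 56 bases before the start, and Cxcl10 (chr5:92348840-92349139, minus strand) 159, 104 and 103 bases before it.
Cxcl1: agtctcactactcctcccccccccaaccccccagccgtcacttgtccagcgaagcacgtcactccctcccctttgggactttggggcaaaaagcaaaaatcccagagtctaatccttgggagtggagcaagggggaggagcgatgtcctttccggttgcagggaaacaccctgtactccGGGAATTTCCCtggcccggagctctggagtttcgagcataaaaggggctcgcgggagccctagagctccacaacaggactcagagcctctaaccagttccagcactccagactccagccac
Cxcl2: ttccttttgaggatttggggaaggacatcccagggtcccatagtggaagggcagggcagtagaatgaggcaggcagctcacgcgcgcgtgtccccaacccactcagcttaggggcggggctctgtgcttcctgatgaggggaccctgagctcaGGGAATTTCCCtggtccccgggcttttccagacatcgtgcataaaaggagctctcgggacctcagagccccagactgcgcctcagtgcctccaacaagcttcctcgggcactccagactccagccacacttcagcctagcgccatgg
Il6: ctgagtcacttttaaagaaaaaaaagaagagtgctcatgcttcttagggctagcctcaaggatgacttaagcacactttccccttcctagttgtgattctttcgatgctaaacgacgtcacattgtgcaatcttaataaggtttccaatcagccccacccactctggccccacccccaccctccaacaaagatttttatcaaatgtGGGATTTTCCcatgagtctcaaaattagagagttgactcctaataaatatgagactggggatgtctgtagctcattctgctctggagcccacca
Tnip1: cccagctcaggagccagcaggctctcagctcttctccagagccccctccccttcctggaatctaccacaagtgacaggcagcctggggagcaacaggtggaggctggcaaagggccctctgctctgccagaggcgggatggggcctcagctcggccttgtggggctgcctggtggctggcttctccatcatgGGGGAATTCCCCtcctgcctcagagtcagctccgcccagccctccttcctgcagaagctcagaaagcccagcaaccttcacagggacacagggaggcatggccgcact
Cxcl10: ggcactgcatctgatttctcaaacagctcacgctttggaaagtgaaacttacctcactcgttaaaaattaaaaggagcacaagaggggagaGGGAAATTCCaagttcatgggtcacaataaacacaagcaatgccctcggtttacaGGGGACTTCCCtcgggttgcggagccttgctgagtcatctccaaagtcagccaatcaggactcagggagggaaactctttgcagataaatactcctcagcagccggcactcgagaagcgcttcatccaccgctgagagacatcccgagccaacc
The same run of 11 bases stands in the windows of Cxcl1 and Cxcl2. Cxcl10 also holds a match to the interferon-stimulated response element 213 bases before the start, a motif found in 3.03% of the windows of tested genes and in 10 of the 166 windows of genes that rose (6.02%). NF-kB and interferon element matches overlapped in 2 of the windows of tested genes and in 0 of those that rose. Windows that lack a match include those of Il1b and Ptgs2.

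Enzymes that make inflammatory mediators rose in part. In the prostaglandin and leukotriene list, 2 of 18 rose and none fell (median 0.04). Ptgs2 (COX-2), the inducible enzyme of prostaglandin synthesis, had 13.47, 13.28 and 13.46 with LPS and 12.23, 12.66, 12.22 and 12.06 with PBS. PBS replicate 2 was the highest control and lay 0.62 under the lowest LPS array, and the rise was 1.11 ± 0.16 (adjusted p = 0.0252). Ptges, which completes prostaglandin E2, rose by 0.96 ± 0.16 (adjusted p = 0.0395). Ptges lost its call without LPS replicate 3 (adjusted p = 0.127).

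Among 16 enzymes of itaconate, nitric oxide, arginine and tryptophan metabolism, 3 rose and none fell (median 0.15). Arg2, the mitochondrial arginase, read 10.36, 10.11 and 10.25 with LPS and 8.95, 9.05, 9.01 and 9.26 with PBS, without overlap, and rose by 1.17 ± 0.13 (adjusted p = 0.0164). Slc7a2, an arginine transporter, and Ido2, an enzyme of tryptophan breakdown, rose by 0.82 ± 0.17 (adjusted p = 0.0739) and 0.70 ± 0.14 (adjusted p = 0.0642). Arg2 alone of these stayed called with any array left out (highest adjusted p of the others 0.248, for Slc7a2 without LPS replicate 2), and Ido2 lost its call with the replicate block (adjusted p = 0.114). Nos2, which makes nitric oxide, had 12.08, 11.57 and 12.30 with LPS and 11.15, 11.62, 11.32 and 11.40 with PBS. LPS replicate 3 lay below PBS replicate 2, and the difference was 0.61 ± 0.19 (adjusted p = 0.231). Acod1, the itaconate enzyme, read 13.86, 13.90 and 13.87 with LPS and 13.72, 13.73, 13.71 and 13.70 with PBS, a difference of 0.16 ± 0.11 (adjusted p = 0.668).

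Acute-phase and antimicrobial proteins had the second highest median, 0.53, with 3 of 17 called higher and none lower. Lcn2 (lipocalin 2), which binds bacterial siderophores, had 12.60, 12.12 and 12.51 with LPS and 10.18, 10.90, 9.57 and 9.78 with PBS. The groups were 1.22 apart at their closest, and the rise was 2.30 ± 0.28 (adjusted p = 0.0198). S100a8, a subunit of calprotectin, rose by 1.59 ± 0.28 (adjusted p = 0.0456) and Saa3, a serum amyloid protein, by 0.79 ± 0.17 (adjusted p = 0.0804). S100a8 is also a neutrophil marker, and over the 10 neutrophil markers measured it was the only one called, with a mean marker level of 9.10 to 9.40 in the LPS arrays and 8.62 to 9.29 in the PBS arrays. The part of neutrophil RNA in its rise was not tested. Without LPS replicate 3, S100a8 had an adjusted p of 0.146, and without LPS replicate 2, Saa3 had 0.257.

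Hamp and Steap4 were among the 7 genes that rose at least 4-fold. Hamp, the iron-regulating hormone hepcidin, read 10.65, 10.17 and 10.19 with LPS and 7.50, 8.43, 8.60 and 7.75 with PBS. The lowest LPS array lay 1.57 above the highest PBS array (difference 2.27 ± 0.27, adjusted p = 0.0177). Steap4, which reduces iron and copper at membranes, had 9.17, 8.31 and 8.93 with LPS and 6.48, 6.85, 6.66 and 6.98 with PBS, again without overlap, and rose by 2.06 ± 0.21 (adjusted p = 0.0111). Slc39a14, a zinc and iron transporter, was the 1 of 17 genes called in the list of antioxidant, metallothionein and iron genes (1.22 ± 0.19, adjusted p = 0.0386, but 0.123 without LPS replicate 2). The median of that list was 0.14. Matrix metalloproteinases and their inhibitors had 2 of 15 higher and 1 lower. Mmp13, a collagenase, and Mmp14, which activates others, rose by 1.09 ± 0.18 (adjusted p = 0.0395) and 0.55 ± 0.12 (adjusted p = 0.0866), and the inhibitor Timp2 fell by 0.70 ± 0.13 (adjusted p = 0.0466). None of these 3 stayed called in every fit with an array left out, and the highest adjusted p was 0.297, for Mmp14 without LPS replicate 3.

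The receptors of LPS moved in opposite directions. Tlr4 itself had 10.86, 11.01 and 11.04 with LPS and 11.97, 11.51, 11.61 and 11.87 with PBS. All LPS arrays lay below all PBS arrays, and Tlr4 fell by 0.77 ± 0.14 (adjusted p = 0.0517). Cd14 had 13.05, 13.40 and 13.42 with LPS and 12.26, 12.32, 12.86 and 11.98 with PBS, and rose by 0.94 ± 0.20 (adjusted p = 0.0822). The gap between LPS replicate 2 and PBS replicate 3 was 0.19, and the adjusted p was 0.253 without LPS replicate 3 and 0.114 with the replicate block. Ly96 read 10.77, 11.05 and 10.74 with LPS and 10.95, 10.70, 10.83 and 10.63 with PBS and did not differ detectably (0.08 ± 0.14, adjusted p = 0.899). Of 15 genes of LPS binding and the adaptors, 2 rose and 1 fell (median 0.14). The other riser was Irak3 (IRAK-M), an inhibitor of TLR signalling, with 11.98, 12.20 and 12.14 against 11.17, 11.09, 11.36 and 10.92. Its groups were 0.62 apart, and it rose by 0.97 ± 0.14 (adjusted p = 0.0252) and stayed called with any array left out. Of 11 Toll-like receptors, 2 fell and none rose, with a median of -0.31. Besides Tlr4 this was Tlr13, a sensor of bacterial ribosomal RNA (-1.22 ± 0.26, adjusted p = 0.0767, and 0.208 without PBS replicate 1). Neither Tlr4 nor Tlr13 kept its call with every array left out.

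Of 16 genes of NF-kB subunits and feedback regulators, 3 rose and none fell (median 0.21). Zc3h12a, an RNase that degrades cytokine messages, had 10.33, 10.31 and 10.27 with LPS and 9.34, 9.32, 9.26 and 8.98 with PBS, a rise of 1.08 ± 0.13 (adjusted p = 0.018). Nfkbiz, a nuclear IκB protein that switches on secondary NF-kB targets, read 12.55, 12.44 and 12.50 against 11.52, 11.59, 11.23 and 11.44 and rose by 1.05 ± 0.13 (adjusted p = 0.0183). In both, the arrays of each group lay close together and the groups did not overlap. Tnip1, a partner of the inhibitor A20, rose by 0.69 ± 0.12 (adjusted p = 0.0457, and 0.149 without LPS replicate 2). Nfkbia (IκBα) and Tnfaip3 (A20), both known early targets, had differences of 0.22 ± 0.11 (adjusted p = 0.542) and 0.41 ± 0.11 (adjusted p = 0.165). A dimmer probe set of Tnfaip3 was called, with a rise of 0.68 ± 0.14 (adjusted p = 0.0802).

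Downstream regulators were called in smaller numbers. Among 16 STAT factors and SOCS inhibitors, Socs3 and Cish, inhibitors of cytokine receptors, rose by 0.85 ± 0.17 (adjusted p = 0.0713) and 0.87 ± 0.18 (adjusted p = 0.0744) and none fell (median 0.18). Socs1 differed by 0.04 ± 0.13 (adjusted p = 0.958) and Stat5a, which the GM-CSF receptor uses, by 0.53 ± 0.15 (adjusted p = 0.186). Of 22 MAP kinase phosphatases and immediate early factors, 4 rose and none fell (median 0.21). The AP-1 proteins Fosl2 and Fosl1 rose by 0.84 ± 0.14 (adjusted p = 0.0395) and 0.77 ± 0.13 (adjusted p = 0.045), the phosphatase Dusp2 by 0.76 ± 0.12 (adjusted p = 0.0364) and Ier3 by 0.68 ± 0.12 (adjusted p = 0.0497). With the replicate block, Fosl1 had an adjusted p of 0.101. With single arrays left out, none of these 6 kept its call throughout (highest adjusted p 0.25, for Cish without LPS replicate 2).

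In the list of IL-1 family receptors and the inflammasome, 3 of 15 rose and none fell (median 0.14). Nlrp3, the inflammasome sensor, had 11.42, 11.45 and 11.40 with LPS and 10.35, 10.65, 10.35 and 10.17 with PBS. The highest control lay 0.75 below the lowest LPS array, and Nlrp3 rose by 1.04 ± 0.13 (adjusted p = 0.0203). Il1r1, the IL-1 receptor, and Il1rl2, the IL-36 receptor, rose by 0.99 ± 0.15 (adjusted p = 0.0364) and 0.90 ± 0.18 (adjusted p = 0.0674). Nlrp3 alone of the 3 stayed called with any array left out, and Il1rl2 had an adjusted p of 0.177 without PBS replicate 1. Dimmer probe sets of Il1r1 and Il1rl2 were not called and read 0.16 ± 0.11 and 0.23 ± 0.17 (adjusted p = 0.684 and 0.707). Trem1, a receptor that amplifies TLR signals, read 7.75, 7.43 and 7.34 with LPS and 6.63, 6.99, 6.71 and 6.57 with PBS, and rose by 0.78 ± 0.15 (adjusted p = 0.0597, and 0.201 without LPS replicate 2). A dimmer probe set of Trem1 was not called and read 0.22 ± 0.21 (adjusted p = 0.788). Trem1 was the only one of 9 genes called in the TREM list. Trem2, a receptor of the same family that dampens TLR signals, had 8.33, 9.34 and 9.11 against 10.24, 9.26, 10.51 and 9.92. LPS replicate 3 lay above PBS replicate 2 there, and the difference was -1.06 ± 0.31 (adjusted p = 0.211, and 0.0489 with the replicate block).

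**Figure D2:**
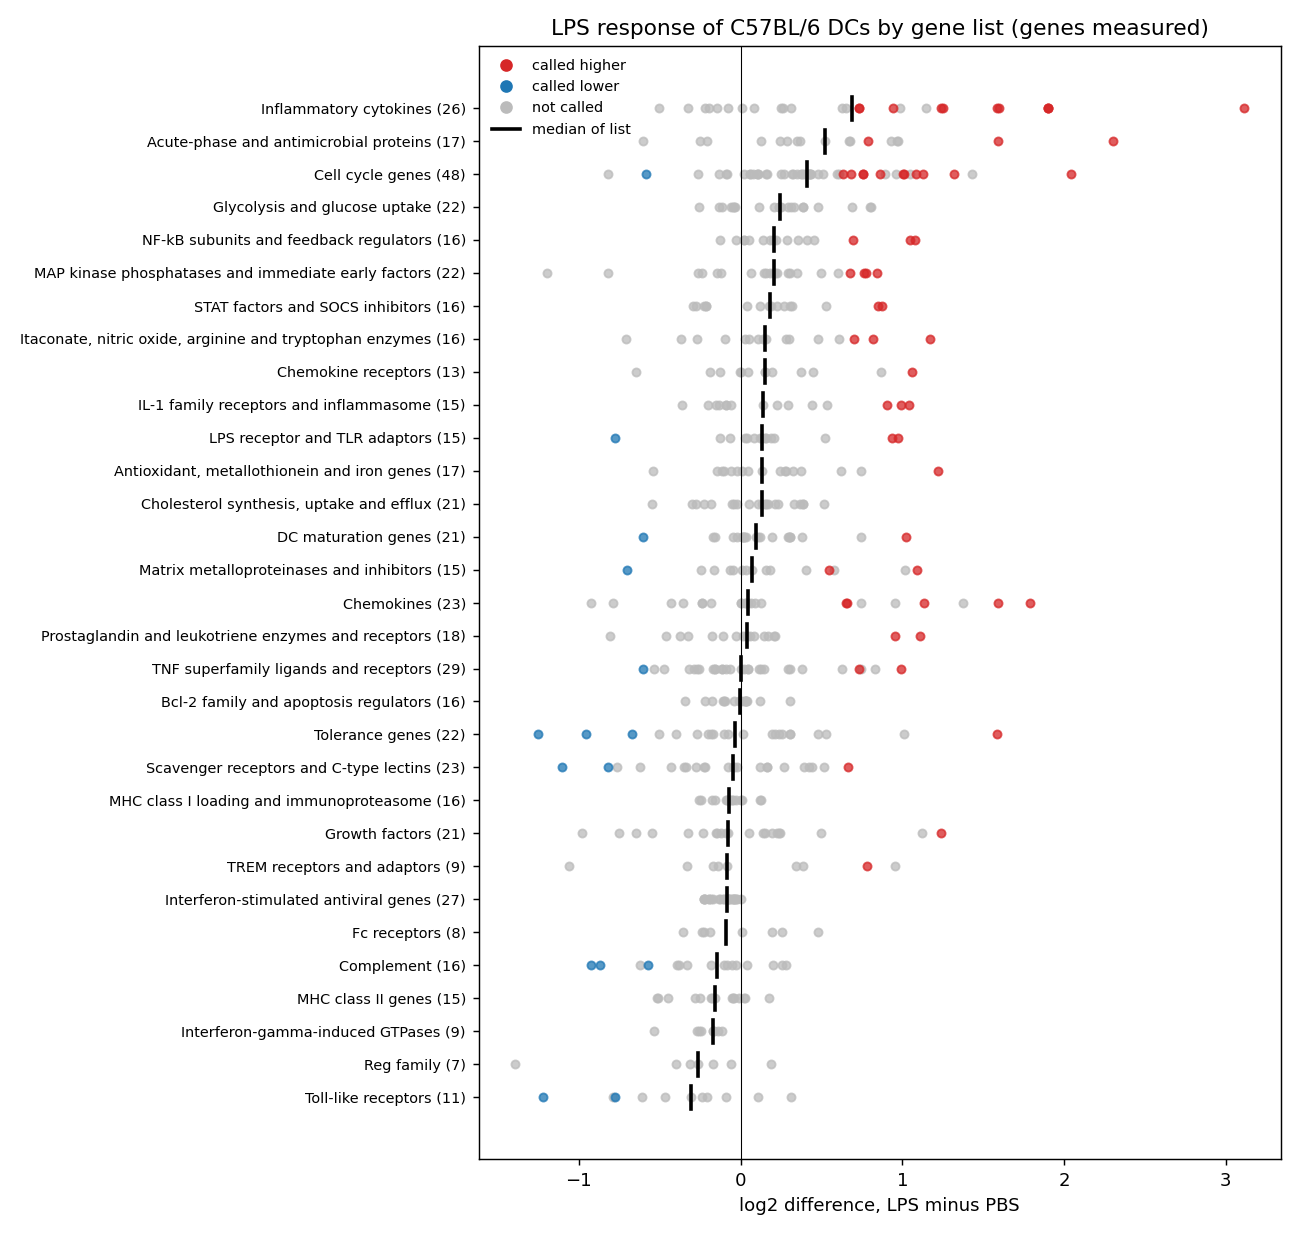
Log2 difference, LPS minus PBS, of every measured member of 31 gene lists, with the number measured in parentheses. Red and blue points passed the threshold as higher and lower, grey points did not, and black bars are list medians, which run from 0.69 for inflammatory cytokines to -0.31 for Toll-like receptors, while the 27 interferon-stimulated genes lie between -0.23 and 0.00.

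No interferon-stimulated gene of the antiviral list was called. Of 27 antiviral genes that interferon induces, 0 were called by limma and 0 had an unadjusted p under 0.05, and 0 were called with the replicate block or in 1 fit of all 22 arrays. Their differences ran from -0.23 to 0.00, with a median of -0.08. Of the 27, 26 were negative and 1 positive, against 8041 negative and 10152 positive over all 18193 genes. Ifit1, which binds foreign RNA, had 13.96, 13.81 and 13.83 with LPS and 14.06, 13.97, 13.86 and 13.92 with PBS. Rsad2 (viperin) read 14.44, 14.38 and 14.35 with LPS and 14.46, 14.45, 14.34 and 14.40 with PBS. Irf7, a factor that sustains interferon production, had 13.77, 13.89 and 13.94 with LPS and 13.93, 13.87, 14.03 and 13.92 with PBS. The groups overlapped in these 3 genes. Of 9 GTPases induced by interferon-γ, 0 were called by limma, 1 had an unadjusted p under 0.05, 0 were called with the block or in the fit of all 22 arrays, and the median was -0.17. All 9 differences were negative. Gbp2b, a guanylate-binding protein outside that list, did fall and is described with the falls.

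These genes were already high in the PBS-cultured DCs. The mean over the 27 antiviral genes was 13.40 to 13.43 with PBS and 13.28 to 13.33 with LPS, without overlap. In the 4 arrays of DCs lysed directly it was 10.5 to 10.6. Ifit1 had 9.64 to 9.98 at steady state, Irf7 9.28 to 9.87 and Cxcl10 9.24 to 9.67. Acod1, at 13.70 to 13.73 in the PBS arrays, had 6.52 to 7.08 at steady state, and Nos2, at 11.15 to 11.62, had 6.16 to 6.32. Several genes that rose with LPS were also above their steady state level in PBS culture. Ptgs2 had 5.97 to 7.86 at steady state against 12.06 to 12.66 with PBS, Csf3 4.35 to 5.42 against 7.63 to 8.93, and Il10 7.76 to 8.79 against 9.02 to 9.55. Il1b was nearer, with 10.39 to 11.25 at steady state against 11.04 to 11.66. The highest value of any of the 7 arrays was 14.995, and whether levels near it understate a difference was not tested.

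**Figure D3:**
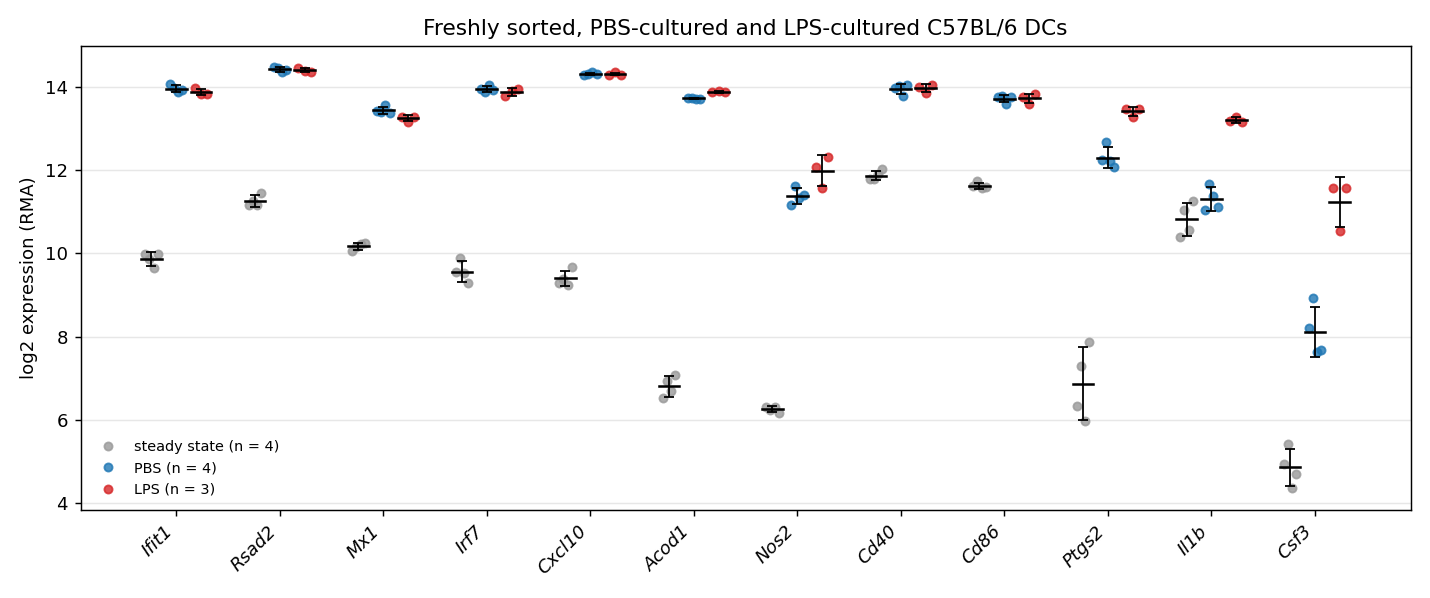
Log2 expression of 12 genes in C57BL/6 DCs lysed directly after the sort (grey, 4 arrays), cultured with PBS (blue, 4 arrays) and cultured with LPS (red, 3 arrays), with the mean (line) and SD (bar). The interferon-stimulated genes Ifit1, Rsad2, Mx1 and Irf7 and the chemokine Cxcl10 sit at 13 to 14.5 in both cultures and below 11.5 at steady state, whereas Ptgs2, Il1b and Csf3 are separated between PBS and LPS. The steady state arrays come from what the series calls another experiment.

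Costimulation and antigen presentation changed in few genes. Among 21 DC maturation genes, 1 rose and 1 fell (median 0.10). Cd80, a ligand of CD28, had 11.49, 11.44 and 11.01 with LPS and 10.15, 10.56, 10.35 and 10.13 with PBS, and rose by 1.02 ± 0.16 (adjusted p = 0.0395) without overlap. Tnfrsf4 (OX40), a TNF superfamily receptor placed in this list, fell by 0.60 ± 0.13 (adjusted p = 0.0804). Its adjusted p was 0.278 without LPS replicate 3 and 0.107 with the replicate block. Which cells its RNA came from was not tested. Neither Cd80 nor Tnfrsf4 kept its call with every array left out. Cd86, the other CD28 ligand, read 13.74, 13.58 and 13.81 with LPS and 13.74, 13.76, 13.58 and 13.74 with PBS, and Cd40, the receptor for T cell help, 14.00, 13.86 and 14.04 with LPS and 13.96, 14.01, 13.77 and 14.04 with PBS. Both overlapped, with differences of 0.01 ± 0.12 and 0.02 ± 0.12 (adjusted p = 0.994 and 0.976). At steady state Cd86 had 11.55 to 11.72 and Cd40 11.77 to 12.01, below both cultures. Of 15 genes of MHC class II presentation, 0 were called by limma (median -0.16). At an unadjusted p under 0.05, 3 were lower and none higher, against 5.5% and 5.24% of all genes. The number called was 0 with the block and 1 in the fit of all 22 arrays. H2-Ab1 differed by -0.16 ± 0.11 (adjusted p = 0.688) and its chaperone Cd74 by -0.05 ± 0.11 (adjusted p = 0.936). Of 16 genes of MHC class I loading and the immunoproteasome, 0 were called, 0 had an unadjusted p under 0.05 and 0 were called in the other fits named.

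Part of the cell cycle genes rose with LPS. Of 48 measured, 11 rose and 1 fell, 26 had an unadjusted p under 0.05 as higher and 2 as lower, and the median was 0.41 against 0.026 over all genes. Mki67, the proliferation antigen Ki-67, had 11.72, 11.39 and 11.17 with LPS and 10.14, 10.42, 9.84 and 10.05 with PBS. Every LPS array lay at least 0.75 above every PBS array, and Mki67 rose by 1.32 ± 0.18 (adjusted p = 0.0214). Rrm2, which supplies deoxynucleotides for DNA synthesis, had 10.22, 9.89 and 8.87 with LPS and 7.64, 8.49, 6.63 and 7.73 with PBS. LPS replicate 4 was low and PBS replicate 2 high, 0.38 apart, and the rise of 2.04 ± 0.42 (adjusted p = 0.0709) was lost without LPS replicate 2 (adjusted p = 0.239).

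Kif11, a motor of the mitotic spindle, rose by 1.13 ± 0.16 (adjusted p = 0.0252), Birc5 (survivin) by 1.09 ± 0.19 (adjusted p = 0.0472), Cdca8, a subunit of the chromosomal passenger complex, by 1.01 ± 0.15 (adjusted p = 0.0364) and the checkpoint kinase Bub1 by 1.00 ± 0.16 (adjusted p = 0.0395). Ccna2, Ccnb2, Mcm5, Mcm7 and Aurkb rose by 0.64 to 0.86. Ccnd1 (cyclin D1) fell by 0.58 ± 0.13 (adjusted p = 0.0968). Mki67 and Kif11 stayed called with any array left out, and 9 of the 12 calls held with the replicate block. Across arrays, the mean of the 48 genes was 9.33, 9.22 and 9.01 with LPS and 8.76, 8.86, 8.56 and 8.75 with PBS, without overlap, and 9.89 to 10.1 at steady state. The mean over 11 B cell markers was 10.28, 10.07 and 9.49 with LPS and 9.45, 9.94, 9.49 and 8.99 with PBS, and these overlapped. None of the 11 was called by limma, and 5 had an unadjusted p under 0.05, all higher. With the block 2 were called, against 0 in the fit of all 22 arrays. All 11 differences were positive, with a median of 0.44, beside 0.41 for the cell cycle genes. Cd79a, a chain of the B cell receptor complex, differed by 0.80 ± 0.33 (adjusted p = 0.408). Tnfrsf13b (TACI), a receptor best known from B cells, rose by 0.99 ± 0.22 (adjusted p = 0.0843) and Ccr6, a chemokine receptor of B cells and DCs, by 1.06 ± 0.20 (adjusted p = 0.0517). The part of B cell RNA in these rises and in those of the cell cycle genes was not tested.

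By the brightest probe set of each gene, the falls were smaller than the rises and reached 3.64-fold. The largest by that probe set were Ddx4, Sectm1a, Gbp2b, Ndrg4, Atp6v0d2 and Flt1. A dimmer probe set fell past 4-fold in Eya4 (-2.49 ± 0.31, adjusted p = 0.0198) and in Cadm1 (-2.05 ± 0.36, adjusted p = 0.0457). That of Eya4 had an LPS mean of 5.59, below the lower quartile of every array. Ddx4, a germ cell RNA helicase, and Sectm1a had LPS means below the lower quartile of every array, so their sizes rest on dim probe sets. The same holds for 1700099I09Rik. Gbp2b, a guanylate-binding protein, had 7.94, 7.59 and 7.92 with LPS and 9.71, 9.12, 9.64 and 9.28 with PBS. The groups were 1.18 apart at their closest, and Gbp2b fell by 1.62 ± 0.17 (adjusted p = 0.0158). Flt1, a receptor of vascular endothelial growth factor, read 8.20, 8.25 and 8.18 with LPS and 9.60, 9.28, 10.18 and 9.65 with PBS. The LPS arrays lay within 0.07 of each other, and Flt1 fell by 1.47 ± 0.19 (adjusted p = 0.0203). Atp6v0d2, a subunit of the vacuolar proton pump, read 7.30, 7.24 and 7.95 with LPS and 8.89, 8.67, 9.14 and 9.48 with PBS, without overlap, and fell by 1.55 ± 0.23 (adjusted p = 0.0295, and 0.112 without LPS replicate 2). Cebpa, a transcription factor of myeloid differentiation, had 7.66, 8.68 and 8.15 with LPS and 9.71, 9.0, 9.64 and 9.49 with PBS. LPS replicate 3 and PBS replicate 2 were 0.33 apart (difference -1.30 ± 0.25, adjusted p = 0.0545, and 0.164 without LPS replicate 2).

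The other large falls were of Ndrg4 (-1.56 ± 0.31), Stra6l (-1.45 ± 0.25), Fgd4, an activator of Cdc42 (-1.44 ± 0.18), the calcium-binding protein Gca (-1.32 ± 0.18), the growth factor Pdgfc (-1.31 ± 0.28), Rcbtb2 (-1.31 ± 0.25) and Eya4 (-1.30 ± 0.21), with adjusted p from 0.0203 to 0.0778. Of the 15 largest falls, Gbp2b, Flt1, Fgd4, Gca and Cd200r1 stayed called with any array left out. Dimmer probe sets of Rcbtb2 were not called and read -1.01 to -0.22.

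Inhibitory and tolerance receptors fell in part. Of 22 tolerance genes, Il10 was the 1 that rose and 3 fell (median -0.03). Cd200r1, which restrains myeloid cells on binding CD200, had 9.48, 9.46 and 9.97 with LPS and 10.97, 10.63, 11.05 and 10.90 with PBS. The groups were 0.66 apart, and Cd200r1 fell by 1.25 ± 0.16 (adjusted p = 0.0209). Havcr2 (TIM-3) fell by 0.96 ± 0.20 (adjusted p = 0.0802, and 0.26 without LPS replicate 2), and Tgfbr1, a chain of the TGF-β receptor, by 0.67 ± 0.12 (adjusted p = 0.0466). Dimmer probe sets of Tgfbr1 were not called and read -0.55 ± 0.23 (adjusted p = 0.432) and -0.44 ± 0.20 (adjusted p = 0.473). Of 23 scavenger receptors and C-type lectins, 2 fell and 1 rose. Clec10a, a galactose-binding lectin, read 7.13, 6.67 and 7.04 with LPS and 8.01, 7.84, 8.49 and 7.87 with PBS, and fell by 1.10 ± 0.18 (adjusted p = 0.0418, and 0.108 with the replicate block). Clec7a (dectin-1), a receptor of fungal glucans, fell by 0.82 ± 0.17 (adjusted p = 0.0775). Cd209c rose by 0.66 ± 0.14 (adjusted p = 0.0863, and 0.119 with the block). None of these 3 lectins, nor Havcr2 or Tgfbr1, kept its call with every array left out. Without LPS replicate 3, Cd209c had an adjusted p of 0.29.

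Some complement and macrophage genes fell. Of 16 complement genes, 3 fell and none rose (median -0.14). C1qc, a chain of C1q, had 11.95, 12.07 and 12.11 with LPS and 13.07, 12.81, 13.05 and 12.95 with PBS, and C1qa had 11.20, 11.42 and 11.40 with LPS and 12.45, 12.01, 12.20 and 12.18 with PBS. Neither overlapped. C1qc fell by 0.93 ± 0.12 (adjusted p = 0.0203) and C1qa by 0.87 ± 0.14 (adjusted p = 0.0387), and C1qc stayed called with any array left out. The third was Itgax, also the integrin chain CD11c, which fell by 0.57 ± 0.12 (adjusted p = 0.0642, 0.23 without LPS replicate 2 and 0.106 with the block). Over 22 macrophage markers, 3 fell (C1qc, C1qa and Mertk, a receptor for dying cells) and Cd14 rose. At an unadjusted p under 0.05, 10 were lower and 2 higher, against 5.5% and 5.24% of all genes. Mertk read 9.74, 9.89 and 9.81 with LPS and 10.86, 10.34, 10.76 and 10.84 with PBS (difference -0.89 ± 0.15, adjusted p = 0.0432). The mean of the 22 markers was 11.22 to 11.45 with LPS, 11.55 to 11.89 with PBS and 12.74 to 12.88 at steady state. The part of a lower share of macrophages in the C1q and Mertk falls was not tested.

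**Figure D4:**
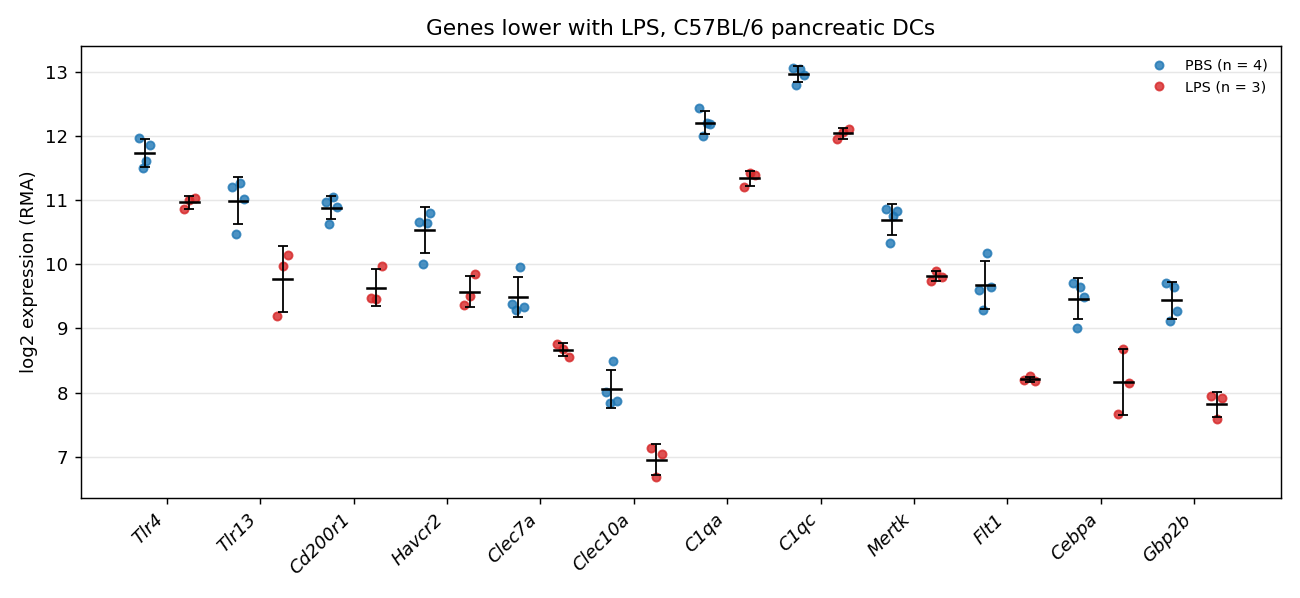
Log2 expression of 12 genes that fell with LPS in each C57BL/6 array, PBS in blue (4 arrays) and LPS in red (3 arrays), with the group mean (line) and SD (bar). In each of the 12 all LPS arrays lie below all PBS arrays, with C1qc bright in both groups and Gbp2b and Flt1 showing wide gaps.

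Few markers of DC subsets were called. Of 15 markers of CD8α- DCs, Clec10a and Itgax fell and none rose (median 0.05). The mean of the 15 was 9.96 to 10.07 with LPS, 10.06 to 10.16 with PBS and 11.75 to 11.84 at steady state. Ccr2, a chemokine receptor of the CD8α- and monocyte lists, had 9.05, 9.20 and 9.56 with LPS and 9.82, 9.80, 9.75 and 10.28 with PBS, with a difference of -0.65 ± 0.17 (adjusted p = 0.167, and 0.0699 with the block). A dimmer probe set of Ccr2 was called without the block (-1.06 ± 0.24, adjusted p = 0.0968). Other dimmer ones read -1.04 ± 0.25 (adjusted p = 0.124) and -0.48 ± 0.21 (adjusted p = 0.468). Irf4, a transcription factor of CD8α- DCs, differed by 0.50 ± 0.19 (adjusted p = 0.349). In the list for CD103+ or CD8α+ DCs, with 11 markers measured, the adhesion molecule Cadm1 and the lipid hydrolase Naaa fell, by 1.22 ± 0.23 (adjusted p = 0.0517) and 0.59 ± 0.12 (adjusted p = 0.0713). Neither kept its call with every array left out (highest adjusted p 0.248, for Naaa without LPS replicate 3). Dimmer probe sets of Naaa were not called and read -0.02 ± 0.14 (adjusted p = 0.983) and -0.14 ± 0.17 (adjusted p = 0.849). Of the lists of other cells, those of plasmacytoid DCs, monocytes, T cells, NK and innate lymphoid cells, mast cells, islet cells and acinar cells had 0 genes called by limma, with 0 to 3 genes each at an unadjusted p under 0.05 and 0 or 1 called with the replicate block. Among 14 duct, stromal and endothelial markers, Kdr, another VEGF receptor, fell by 0.64 ± 0.14 (adjusted p = 0.0915, and 0.278 without LPS replicate 3). Xcl1, a chemokine in the NK list, was called with the block but not in the unblocked fit (difference -0.86 ± 0.22, adjusted p = 0.15, and 0.0549 with the block).

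Other lists had few or no calls. Over all 18193 genes, 1.79% were called by limma and 10.7% had an unadjusted p under 0.05. Of the 18193, 432 were called with the block and 883 in the fit of all 22 arrays. Among 22 genes of glycolysis and glucose uptake, 0 were called by limma, 8 had an unadjusted p under 0.05, all higher, 2 were called with the block and 1 in the fit of all 22 arrays (median 0.24). Of 21 genes of cholesterol handling, 0 were called by limma, 5 had an unadjusted p under 0.05, 0 were called with the block and 2 in the fit of all 22 arrays. No call was made among 16 genes of the Bcl-2 family and apoptosis, where 0 had an unadjusted p under 0.05 and 0 were called with the block or in the fit of all 22 arrays. Fc receptors had 0 of 8 called, with 1 at an unadjusted p under 0.05 and 1 called in the fit of all 22 arrays. In the Reg family of pancreatic growth proteins, 0 of 7 were called by limma, 0 had an unadjusted p under 0.05, and 0 were called with the block or in the fit of all 22 arrays. Reg1 had 8.83, 10.78 and 10.84 with LPS and 11.75, 7.98, 10.94 and 11.52 with PBS. This spread of 3.77 within the PBS group followed the acinar markers, whose mean over 11 genes was 8.61, 10.88 and 10.05 with LPS and 11.36, 8.32, 10.46 and 10.97 with PBS, and the part of acinar RNA in it was not tested. Inhba was the 1 gene called among 21 growth factors.

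The same contrast in NOD DCs was set beside these values. NOD had 4 arrays with LPS and 4 with PBS and 786 of 18193 genes (4.32%), or 1693 of 45037 probe sets (3.76%), called. Of the 326 C57BL/6 genes, 204 were also called in NOD in the same direction and 121 were not called there, while Tcim was called in the opposite direction (0.69 ± 0.16 in C57BL/6 and -0.60 ± 0.16 in NOD, interaction adjusted p = 0.155). The difference between the strains was tested as an interaction over the 15 cultured arrays, and 11 of 45037 probe sets (0.0244%) passed, against 1759 (3.91%) at an unadjusted p under 0.05. Gbp2b was the 1 gene called in C57BL/6, by its brightest probe set, with such a difference. It fell by 1.62 in C57BL/6 and read -0.08 ± 0.12 in NOD (interaction -1.54 ± 0.21, adjusted p = 0.0149). The NOD means of Gbp2b were 11.06 with LPS and 11.14 with PBS, above all C57BL/6 arrays. Mmp3 (stromelysin 1) did not respond detectably in C57BL/6, with 6.79, 6.68 and 6.60 against 6.64, 6.64, 6.55 and 6.31, and differed by 2.86 ± 0.27 in NOD (interaction -2.70 ± 0.35, adjusted p = 0.0104). Fcgr2b, the inhibitory IgG receptor, had C57BL/6 values of 12.95, 13.03 and 13.05 with LPS and 12.49, 12.41, 12.66 and 12.59 with PBS. Its difference was 0.48 ± 0.12 in C57BL/6 and 1.73 ± 0.16 in NOD (interaction -1.26 ± 0.21, adjusted p = 0.0657). A dimmer probe set of Fcgr2b was called in C57BL/6, with a rise of 0.57 ± 0.11 (adjusted p = 0.0554). Map2, a microtubule protein of neurons, differed by 0.13 ± 0.17 in C57BL/6 and -1.24 ± 0.13 in NOD (interaction 1.37 ± 0.21, adjusted p = 0.0442). For Csf2 the values were 1.15 ± 0.30 and 3.29 ± 0.39 (interaction adjusted p = 0.818) and for Flt1 -1.47 ± 0.19 and -0.12 ± 0.17 (interaction adjusted p = 0.254), and neither difference passed. With single arrays left out, 5 to 14 probe sets had a called interaction. Those of Gbp2b and Mmp3 passed in all 15 such fits, while that of the brightest Map2 probe set missed the threshold in 6 (without C57BL/6 PBS replicate 3, any C57BL/6 LPS array, NOD PBS replicate 4 or NOD LPS replicate 2, highest adjusted p 0.205) and that of the brightest Fcgr2b probe set in 13, among them each fit without a C57BL/6 array (highest adjusted p 0.246). A dimmer probe set of each gene passed in all 15 fits (highest adjusted p 0.0513), with an interaction of 2.55 ± 0.31 for Map2 and -1.30 ± 0.17 for Fcgr2b. On that Map2 probe set the C57BL/6 means, 4.62 with LPS and 4.34 with PBS, lay below the lower quartiles of the 7 arrays. With the replicate block the adjusted p of the interaction was 0.117 for Gbp2b and 0.1004 for that dimmer Map2 probe set, and neither passed. It was 0.00898 for Mmp3, 0.0438 for the brightest Map2 probe set, and 0.0792 and 0.038 for the brightest and that dimmer Fcgr2b probe set.

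**Figure D5:**
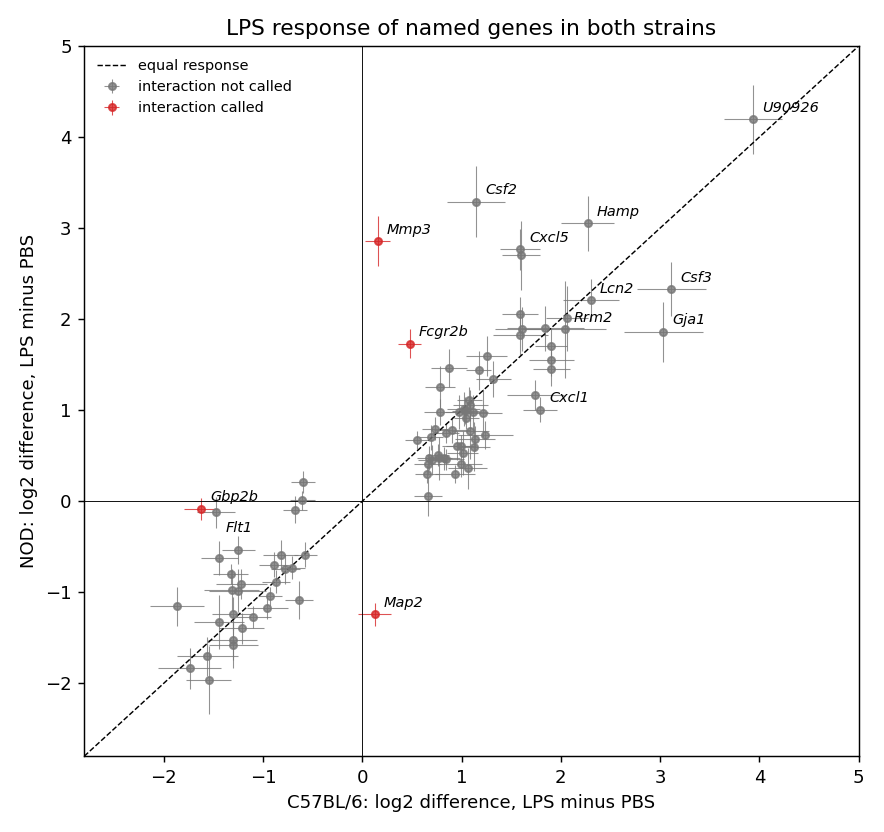
Log2 difference, LPS minus PBS, in C57BL/6 (horizontal) and NOD (vertical) for the 86 named genes called in C57BL/6 and for Csf2, Fcgr2b, Map2 and Mmp3, with SE bars on both axes and the line of equal response dashed. Gbp2b, Fcgr2b, Map2 and Mmp3, in red, are the ones whose difference between strains passed the threshold.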

How the data were processed

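RNA of sorted, cultured pancreatic DCs was amplified and hybridized by the authors to Affymetrix mouse arrays. The authors normalized them by RMA with BRB-ArrayTools (version not stated) and deposited log2 values for 45101 probe sets, each array on its own column. Leaving out 64 AFFX controls left 45037 to test. A single gene is named by 34945 of them (99.42% matched by Entrez id), several genes by 932 and none here by 9160. All columns belong to labelled samples.

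The 3 LPS and 4 PBS arrays were fitted alone with limma 3.58.1 in R 4.3.3 (lmFit and eBayes, without pairing), and adjusted p are Benjamini-Hochberg values over 45037 probe sets, called under 0.1, the study's false discovery level. The study used a multivariate permutation test. SE is the moderated standard error, and 7 arrays limit the precision. Where several probe sets name a gene alone, the brightest stands for it. A gene counts as called in a comparison by that probe set. Among called genes, a dimmer probe set was not called for Inhba (0.00 ± 0.18), Cdca8 (0.26 ± 0.19) or Nfkbiz (0.34 ± 0.18). Every dimmer one of Gja1 was called. Sequences and gene names were joined with Python 3.11.15 and pandas 2.3.3.

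Genes named are the 15 largest rises and 15 largest falls called, up to 5 called members of each of 44 lists (747 genes, 668 measured) or the 3 brightest where none was called, genes the study names for LPS, and the largest interactions. Members and lists were chosen with earlier results of these data known. Named beyond that rule, after their values were seen, were Cd40, Cd86, Cxcl10, Ccl5, Ccl17, Ccl22, Il12b, Il23a, Nos2, Acod1, Ly96, Nfkbia, Tnfaip3, Socs1, Ifit1, Mx1, Irf7, Irf4, Flt3, Zbtb46, Sirpa, Itgam, Ebi3, Lif, Bub1, Ccna2, Ccnb2, Mcm5, Mcm7, Aurkb, Ccnd1 and Tcim.

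Whether equal replicate numbers pair the LPS and PBS arrays was checked by correlating deviations from the group means. This gave 0.423, 0.259 and 0.381 for numbers 2, 3 and 4. Arrays of unequal number gave -0.3 to 0.242, the highest for LPS replicate 2 with PBS replicate 1. Equal numbers were therefore treated as pairs in a blocked alternative, in which PBS replicate 1 has no partner. The other alternatives are in the closing part. On simulated arrays with 200 of 45037 probe sets changed, limma called 0 at a log2 change of 0.5, recovered 69.5% at 1 and 97% at 2, and 12% and 10.6% of the calls at those last sizes were false.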

Additional observations from a re-analysis of the deposited data

Results flagged for a closer look

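In 7 of 142 named genes tested, 1 PBS array lay far from the other 3. With this rule about 5% of groups are expected to be marked by chance, and 7 of 142 lies near that share. Which array was marked was not tested. PBS replicate 2 was the outlying array in 5 of them. It was the lowest for Eya4 (7.97, the others 8.43 to 8.45), Fgd4 (8.59, the others 9.11 to 9.22) and Ndrg4 (8.78, the others 9.62 to 9.70), and the highest for Tnip1 (12.31, the others 12.10 to 12.13) and Urah (9.97, the others 9.17 to 9.24). In each of these 5 genes it lay on the side of the LPS arrays. PBS replicate 4 was the highest for Ccr2 (10.28, the others 9.75 to 9.82) and PBS replicate 3 for Clec7a (9.95, the others 9.28 to 9.38).

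The LPS response differed between the strains in 11 probe sets by the interaction test of limma. As C57BL/6 minus NOD response, these were Mmp3 at -2.70, Epha4 at -1.65, Gbp2b at -1.54, 4 probe sets of Fcgr2b at -1.45, -1.26, -1.55 and -1.30, 3 probe sets of Map2 at 2.55, 1.85 and 1.37, and 1 unnamed probe set at -1.47. For Map2 the probe sets at 2.55 and 1.85 had C57BL/6 means of 4.34 to 4.91, and the unnamed one of 5.13 to 5.44. All lay below the lower quartiles of the 7 arrays, so the C57BL/6 side of these differences is dim. In NOD the 2 Map2 probe sets had means of 5.09 and 5.44 with LPS and 7.37 and 7.62 with PBS. The unnamed one had 6.49 with LPS and 5.33 with PBS. Epha4, an ephrin receptor, read 5.82, 5.74 and 5.44 with LPS and 5.94, 5.62, 5.62 and 5.90 with PBS in C57BL/6 on that probe set, below the lower quartile of the arrays. Its brightest probe set had an interaction of -0.75 ± 0.24 (adjusted p = 1).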

How the results depend on the processing

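For C57BL/6 LPS minus PBS, 665 probe sets were called (322 higher and 343 lower). At an adjusted p under 0.05 these were 269 (155 and 114), and with a 2-fold minimum 201 (110 and 91). One fit of all 22 arrays gave 2030 (845 and 1185), that of the 15 cultured arrays 1140 (504 and 636), and an intensity trend with a robust spread 1085 (496 and 589). Without the dimmer 50% of probe sets, 534 were lower. With 1 probe set per gene 417 were called (212 and 205), out of fewer features tested. With the replicate number as a block (pairing), 953 were called, 369 higher and 584 lower, and 268 of the 326 genes stayed called. Leaving out single arrays gave 84 to 653 in all, 59 to 294 higher and 25 to 359 lower. Centring, array weights and averaging the probe sets of a gene left the counts within 1.5 times. Apart from construction, the cause was not tested.

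The 11 called interactions became 6 without the dimmer probe sets, 20 in the fit of all 22 arrays, 18 with the replicate block within each strain and 5 to 14 with single arrays left out. None of the 86 named genes called changed sign under the alternatives run, of which that without the dimmer 50% held 76 of them, and 48 to 57 of them lost the call without PBS replicate 1 or 4 or any LPS replicate. Reg1, not called (-0.40), turned to 0.049 with array weights, to 0.00077 with the block or without PBS replicate 1 and to 0.26 without LPS replicate 2, within a range of -1.25 to 0.26 over single arrays left out. Signal limits Ddx4, Sectm1a and 1700099I09Rik, whose LPS means lay below the lower quartile of every array, and the dim probe sets among the interactions given above.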
